A study of Arabidopsis thaliana with 4 samples.

Results

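The trichome birefringence-like (TBL) genes of Arabidopsis thaliana, named after TRICHOME BIREFRINGENCE (TBR), were followed in root tips of the sol2 mutant and of wild type. Members were the probe sets of the array that the platform annotation paired with exactly 1 gene whose symbol is TBR or TBL followed by a number, with 1 probe set per gene. This gave 22 genes, each with a single probe set, of 13356 genes that had such a probe set. The RefSeq gene table names 46 genes of the family by symbol, synonym or full name. Of the rest, TBR itself (AT5G06700) and TBL40 (AT2G31110) have probe sets under their locus names and are given apart, and 22 were not analysed here, among them ESK1 (TBL29), TBL3, TBL27, PMR5 (TBL44) and TBL10.

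The genotypes compared were sol2 and wild type, with 2 arrays each. SOL2, also called CORYNE, encodes a membrane-bound kinase-type protein that relays CLE peptide signals. The seedlings had grown on MS medium for 4 days at 23 °C in continuous light, and total RNA of the root tip was hybridised as biotin-labelled cRNA to GeneChip arrays. The sol2 allele and the accession of the plants are not given in the sources used here, and the labels do not say whether replicates were separate cultures, so that the p-values reflect array-to-array spread, which may be technical.

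Plant cell walls carry acetyl groups on xylan, xyloglucan, glucomannan and pectin, and these groups affect how the polymers pack together and how easily enzymes cut them. TBL proteins are thought to sit mostly in the Golgi. Those studied biochemically mostly transfer acetyl groups onto a single kind of wall polymer each. RWA proteins and AXY9 are thought to act upstream, in the supply of acetyl donors. In secondary walls, such as those of xylem vessels, loss of the xylan acetyltransferase ESK1 gives collapsed vessels and dwarfed plants. In bulk root tips, fewer cells of a type and less RNA per cell cannot be told apart.

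None of the TBL genes passed the test between sol2 and wild type. Signals were compared as log2(signal + 18.4), and 16 of the 22 genes lay above the filter on low values and were tested. At an adjusted p under 0.05 (limma), 0 of these 16 were higher and 0 were lower in sol2, against 0.945% higher and 0.300% lower among all 13648 probe sets tested. At an unadjusted p under 0.05 (limma) there were 2, TBL37 (higher) and TBL28 (lower), or 12.5% of the tested members against 8.90% of all probe sets. The median log2 difference, sol2 minus wild type, was 0.016 for the 16 genes and 0.0043 for all probe sets, and the median size of the difference was 0.19 and 0.17. By mean level 8 of the 16 were higher in sol2, against 50.7% of all probe sets. Of the 6 genes below the filter, 1 was higher and 5 were lower in sol2 by mean log2 value, but 4 of these 6 had signals within the range of the background controls.

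**Figure D1:**
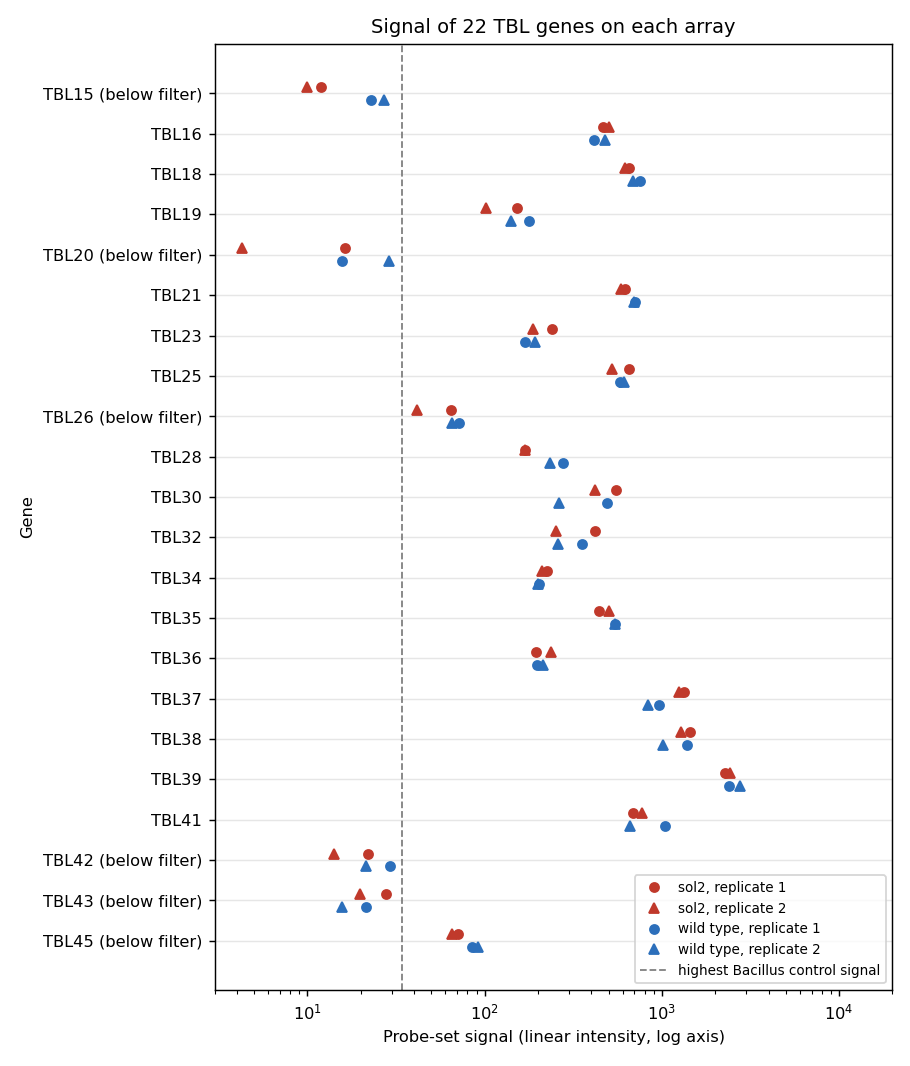
Probe-set signal (linear intensity, log axis) of the 22 TBL genes on each of the 4 arrays, with sol2 in red above wild type in blue and the replicates as circles and triangles. The dashed line is the highest signal of the Bacillus control probe sets (34.1), and TBL15, TBL20, TBL42 and TBL43 lie left of it on all 4 arrays.

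TBL37 (AT2G34070), linked in Arabidopsis to jasmonate responses through MYC2, had the largest positive difference among the tested genes. Its signal was 1325.9 and 1244.0 on the sol2 arrays, against 960.7 and 830.8 on the wild type arrays. Both sol2 arrays lay above both wild type arrays. The mean was 1285 ± 57.9 in sol2 and 896 ± 91.8 in wild type (SD, n = 2), a ratio of 1.43 in signal + 18.4. The log2 difference was 0.51 ± 0.19 (SE), with an unadjusted 95% interval from 0.083 to 0.95 an unadjusted p of 0.0252 and an adjusted p of 0.404 (limma). It was 0.46 between the arrays of replicate 1 and 0.57 between those of replicate 2. With the replicate number as a block the adjusted p was 0.0379 (limma), but nothing in the labels pairs the arrays.

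TBL28 (AT2G40150), one of the xylan acetyltransferases, had the largest negative difference among the tested genes. Its signal was 169.6 and 168.9 in sol2, against 275.6 and 233.4 in wild type. The sol2 arrays were nearly equal, and both lay below the wild type arrays. The log2 difference was -0.54 ± 0.22 (SE), with an unadjusted 95% interval from -1.05 to -0.018 an unadjusted p of 0.0440 and an adjusted p of 0.528 (limma). The ratio of sol2 to wild type in signal + 18.4 was 0.690.

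TBL30 (AT2G40160), the next coding gene after TBL28 on chromosome 2 and likewise a xylan acetyltransferase, showed the opposite sign and a wide spread. Its signal was 554.3 and 420.2 in sol2, against 487.2 and 261.5 in wild type. The genotypes overlapped, and the wild type arrays differed by 0.85 on the log2 scale, the widest gap between replicates of any of the 16 genes. The log2 difference was 0.41 ± 0.31 (SE, adjusted p = 0.862, limma). Leaving out wild type replicate 1 gave 0.84 (adjusted p = 0.0429, limma), whereas leaving out wild type replicate 2 gave -0.013 (adjusted p = 0.983). Such fits borrow the spread of the sol2 pair for the single wild type array. Whether the difference between TBL28 and TBL30 was larger than their error was not tested.

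The other xylan acetyltransferases measured were TBL32, TBL34 and TBL35, and none of them passed the test. TBL32 (AT3G11030), which acetylates xylose residues that carry glucuronic acid, had 418.2 and 253.0 in sol2, against 354.4 and 261.0 in wild type. The first array of each genotype was the higher for this gene, and the genotypes overlapped (log2 0.093 ± 0.29, SE, adjusted p = 0.983, limma). Its probe set has the suffix for probes that can match more than a single transcript, so this signal may include another gene. TBL34 (AT2G38320) had 225.7 and 209.7 in sol2, against 202.1 and 200.0 in wild type, a small difference without overlap (log2 0.10, 95% interval -0.40 to 0.61). TBL35 (AT5G01620) had 440.6 and 501.2 in sol2, against 544.1 and 546.8 in wild type (log2 -0.21, 95% interval -0.67 to 0.26). Both sol2 arrays lay below wild type for TBL35.

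TBL23, TBL25 and TBL26 are mannan O-acetyltransferases, which modify glucomannan. TBL23 (AT4G11090) had 239.4 and 187.9 in sol2, against 168.6 and 192.1 in wild type, with overlapping arrays (log2 0.22 ± 0.24, SE, adjusted p = 0.932, limma). TBL25 (AT1G01430) had 648.9 and 525.6 in sol2, against 581.5 and 614.4 in wild type. The wild type signals of TBL25 lay between the sol2 signals, and the log2 difference was -0.032 with a 95% interval from -0.51 to 0.45. TBL26 (AT4G01080) was below the filter, with 64.3 and 41.8 in sol2 and 71.4 and 65.4 in wild type (log2 -0.30 ± 0.28, SE, adjusted p = 0.875, in the limma fit without a filter). Both sol2 arrays lay below wild type for TBL26, although the margin was smaller than the gap between the sol2 arrays.

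TBL19, TBL20 and TBL21 have neighbouring family numbers, and TBL21 and TBL19 are also next to each other on chromosome 5. TBL21 (AT5G15890) had 618.7 and 591.6 in sol2, against 701.5 and 695.2 in wild type, and the genotypes did not overlap. Its log2 difference was -0.20 ± 0.19 (SE, 95% interval -0.64 to 0.24, adjusted p = 0.916, limma). The observed gap was thus larger than the spread within either pair of arrays, yet smaller than this fit could separate from 0. TBL19 (AT5G15900) had 152.0 and 102.3 in sol2, against 176.9 and 141.2 in wild type, with overlap (log2 -0.30 ± 0.27, SE, adjusted p = 0.913, limma). TBL20 (AT3G02440) had 16.2 and 4.3 in sol2 and 15.6 and 28.7 in wild type, all within the range of the Bacillus controls, so no fold is given.

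TBL38, TBL39 and TBL41 had signals far above the controls and no difference that passed the test. TBL38 (AT1G29050), which acts on homogalacturonan of seed coat cells as an esterase and not as a transferase, had 1447.5 and 1274.7 in sol2, against 1379.4 and 1014.7 in wild type (log2 0.20, 95% interval -0.29 to 0.68). TBL39 (AT2G42570) had 2267.9 and 2429.3 in sol2, against 2385.2 and 2769.6 in wild type (log2 -0.13, 95% interval -0.52 to 0.26). The arrays of the genotypes overlapped for both genes. TBL41 (AT3G14850) had 686.0 and 768.9 in sol2, against 1035.8 and 664.5 in wild type. Both sol2 values of TBL41 thus lay between the wild type values, and its log2 difference of -0.19 became -0.50 if wild type replicate 2 was left out and 0.12 if replicate 1 was. Neither was called, with adjusted p of 0.146 and 0.924 (limma).

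TBL16, TBL18 and TBL36, for which no role is given here, did not pass the test either. TBL18 (AT4G25360) had 652.9 and 621.8 in sol2, against 756.4 and 685.7 in wild type, without overlap (log2 -0.17, 95% interval -0.62 to 0.27). TBL16 (AT5G20680) had 464.5 and 500.3 in sol2, against 416.4 and 476.2 in wild type, and TBL36 (AT3G54260) had 196.2 and 236.6 in sol2, against 197.5 and 213.4 in wild type. The arrays overlapped for both, and their log2 differences were 0.11 and 0.065.

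The remaining genes gave little or no measurable signal. TBL15 (AT2G37720) had 11.9 and 9.9 in sol2 and 23.0 and 27.2 in wild type. TBL42 (AT1G78710) had 22.1 and 14.2 in sol2 and 29.4 and 21.5 in wild type, and TBL43 (AT2G30900) had 27.6 and 19.9 in sol2 and 21.5 and 15.7 in wild type. All of these signals were under the highest Bacillus control signal of 34.1, so no fold is given, also for TBL15, whose arrays did not overlap. TBL45 (AT2G30010), a relative of the pectin-acetylating PMR5, was below the filter but above the controls, with 70.6 and 65.8 in sol2, against 84.9 and 91.4 in wild type. Its sol2 arrays lay below wild type, with a log2 difference of -0.30 ± 0.25 (SE, adjusted p = 0.858, limma fit without a filter).

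**Figure D2:**
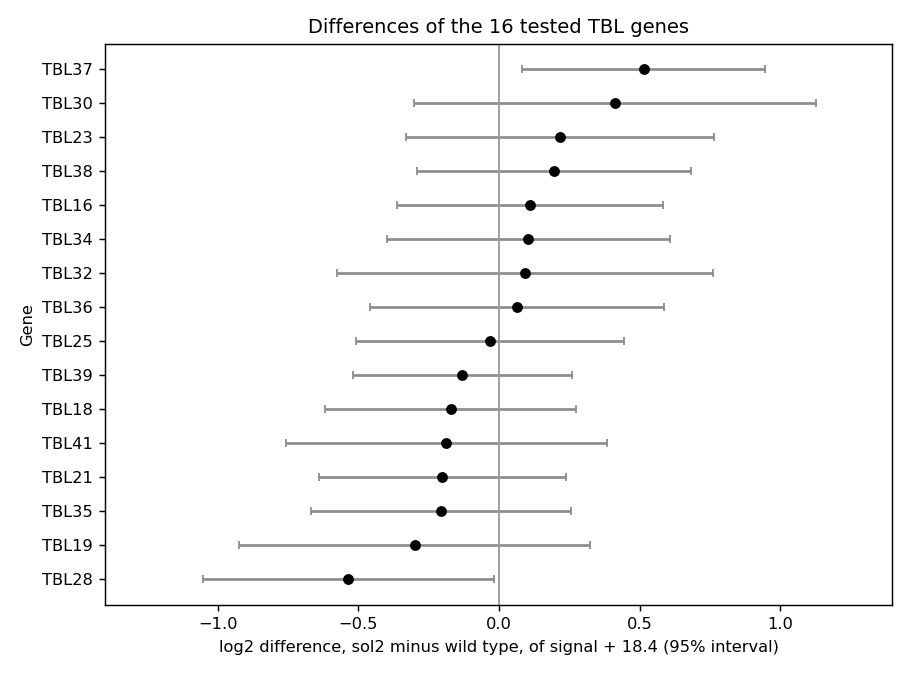
Log2 difference in signal + 18.4, sol2 minus wild type, of the 16 tested TBL genes (points) with unadjusted 95% intervals (bars). Only the intervals of TBL37 (0.083 to 0.95) and TBL28 (-1.05 to -0.018) leave out 0, and neither gene passed the adjusted test.

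The 95% intervals of the 16 tested genes show the precision of these arrays. The lowest bound of any gene was -1.05 (TBL28) and the highest 1.13 (TBL30), and for the other 14 genes the interval stayed within 1 log2 unit on either side of 0. In signal + 18.4, the outermost bounds were ratios of 0.482 and 2.19. These limits depend on single arrays. With an array left out, the fit takes its spread from the complete pair of the other genotype. Over all probe sets tested, the median gap was 0.18 between the sol2 arrays and 0.29 between the wild type arrays (log2). Intervals stayed within 1 log2 unit for 10 genes without sol2 replicate 1 and for 9 without sol2 replicate 2, with outermost bounds of -1.41 and 1.42, and for 14 genes with either wild type array left out. Standard errors of the log2 difference ran from 0.17 to 0.31, with a median of 0.21 for the TBL genes and 0.23 for all probe sets. The smallest difference called anywhere on the array was 0.86.

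The arrays of the genotypes did not overlap for 6 of the 16 genes, which were TBL34 and TBL37 (higher in sol2) and TBL18, TBL21, TBL28 and TBL35 (lower in sol2). Together they were 37.5% of the members, against 36.2% of all probe sets (17.5% higher and 18.6% lower). For the same 6 genes the difference between genotypes exceeded the larger of the gaps between replicates (37.5%, against 24.7% of all probe sets). Apart from TBL28 and TBL37, their log2 differences were -0.17 (TBL18), -0.20 (TBL21), -0.21 (TBL35) and 0.10 (TBL34).

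**Figure D3:**
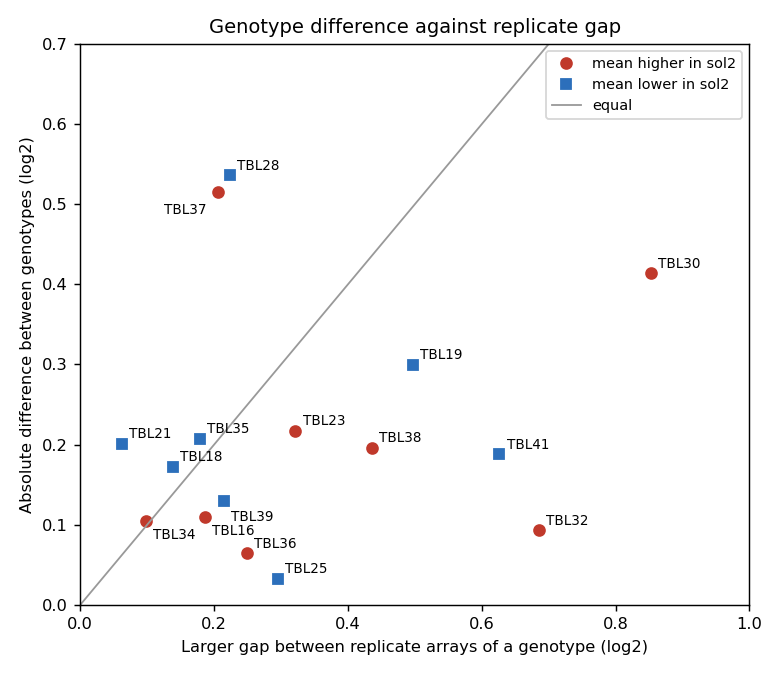
Absolute log2 difference between sol2 and wild type (vertical axis) against the larger log2 gap between replicate arrays of a genotype (horizontal axis) for the 16 tested TBL genes, with red circles for genes higher and blue squares for genes lower in sol2. TBL28 and TBL37 stand above the line of equality with differences of 0.54 and 0.51, while TBL30 has a gap of 0.85.

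Replicates of the family also differed in a shared way. For 9 of the 16 genes, including TBL28, TBL30, TBL32, TBL37 and TBL38, the array of replicate 2 was lower than that of replicate 1 in both genotypes, or 56.2% of the members against 27.6% of all probe sets. For 4 genes, TBL16, TBL35, TBL36 and TBL39, it was higher in both (38.3% of all probe sets). Actin signal at the 3' end relative to the 5' end, a measure of RNA integrity, was 11.6 in replicate 1 and 36.9 in replicate 2 of sol2, against 8.45 and 24.5 in wild type. The same ratio for ubiquitin was 2.46 and 2.29 in sol2, against 3.02 and 3.87 in wild type. It was thus higher in replicate 2 for wild type but lower for sol2. For GAPDH the ratio lay between 0.971 and 1.07 on all arrays, and was higher in replicate 2 in both genotypes. The changes of ubiquitin and GAPDH between replicates were much smaller than those of actin. The part of RNA quality in the values of these genes was not tested.

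TBR (AT5G06700), the founding gene of the family, needed for cellulose deposition in trichomes, had 520.2 and 525.6 in sol2, against 506.1 and 547.2 in wild type. Its sol2 values lay inside the wild type range, with a log2 difference of -0.0090 and a 95% interval from -0.46 to 0.44. TBL40 (AT2G31110) had a pair of probe sets, of which the brighter had 214.2 and 189.6 in sol2, against 227.8 and 188.9 in wild type (log2 -0.039 ± 0.23, SE). The dimmer had 107.5 and 56.5 in sol2, against 128.6 and 104.7 in wild type (log2 -0.47 ± 0.31, SE). Neither probe set passed (adjusted p = 0.988 and 0.825, limma), and the arrays of the genotypes overlapped for both.

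The rest of the wall acetylation machinery and the synthesis of the polymers it modifies were covered thinly. Of 102 genes in 8 lists, 23 had a named probe set and 20 were tested. None of the 20 was higher or lower at an adjusted p under 0.05 (limma), against 0.945% higher and 0.300% lower among all probe sets tested. None had an unadjusted p under 0.05 (limma), against 8.90% of all probe sets. With so few genes, these counts do not tell the lists apart from the array as a whole. On the list of other acetylation genes, only AXY9 of 9 genes was measured. AXY9 had 429.5 and 464.1 in sol2, against 508.1 and 524.8 in wild type, a log2 difference of -0.20 without overlap (adjusted p = 0.921).

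Pectin acetylesterases, which remove acetyl groups again, had 5 of 12 genes tested, with a median log2 difference of 0.074. AT5G26670 had the largest difference among them, -0.28, with 117.4 and 138.4 in sol2, against 144.6 and 174.6 in wild type. Xylan synthesis had 3 of 18 genes tested and a median of 0.020. Its IRX15-L varied most, with 509.8 and 241.0 in sol2, against 813.5 and 311.1 in wild type, and overlapped. For xyloglucan synthesis 5 of 13 genes, all of the CSLC glucan synthase family, were tested, with a median of -0.091, and CSLC6 had 854.1 and 693.1 in sol2, against 1015.1 and 963.5 in wild type (log2 -0.35 ± 0.20, SE, adjusted p = 0.742, limma).

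Mannan synthesis had 2 of 12 genes tested, with a median of -0.23. The galactosyltransferase gene MUCI10 had 612.3 and 692.8 in sol2, against 824.1 and 821.5 in wild type (log2 -0.33 ± 0.19, SE, adjusted p = 0.768, limma). Its arrays did not overlap. Pectin synthesis had 1 of 20 genes tested, the rhamnosyltransferase gene RRT1, at -0.21. For primary wall cellulose 3 of 13 genes were tested, with a median of 0.023 and COB at -0.24. No gene of the 5 for secondary wall cellulose had a named probe set.

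Markers of cell types were as sparse. Of 10 root hair markers 4 were tested, with signals between 1111.0 and 5019.5 and a median log2 difference of -0.26. They went both ways, with the peroxidase genes PRX44 at -0.89 (adjusted p = 0.238, limma) and PRX7 at 0.45 (adjusted p = 0.629, limma). The root cap gene RCPG had 575.5 and 631.3 in sol2, against 285.6 and 515.8 in wild type. None of these root hair and root cap markers passed the test. Of 7 phloem markers only SWEET11 was measured, and it fell by 2.76 on the log2 scale (adjusted p = 0.00782, limma). The photosynthesis genes RCA and PSBW, 2 of 7 on their list, had a median of -0.43 and did not pass. At an unadjusted p under 0.05 (limma) there were 3 of the 8 markers tested, against 8.90% of all probe sets. These were PRX44, SWEET11 and RCA, all lower in sol2. The lists were chosen with earlier results of these data known, so this share is not a test of the markers. RCPG (log2 0.62, unadjusted p = 0.0610, limma) and PRX7 (unadjusted p = 0.0688, limma) were higher on both sol2 arrays. The remaining markers were lower in sol2 by mean. The part of cell type proportions in the TBL values was not tested. None of the 10 xylem markers had a named probe set, so the amount of xylem, where the xylan acetyltransferases act most, could not be followed here.

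**Figure D4:**
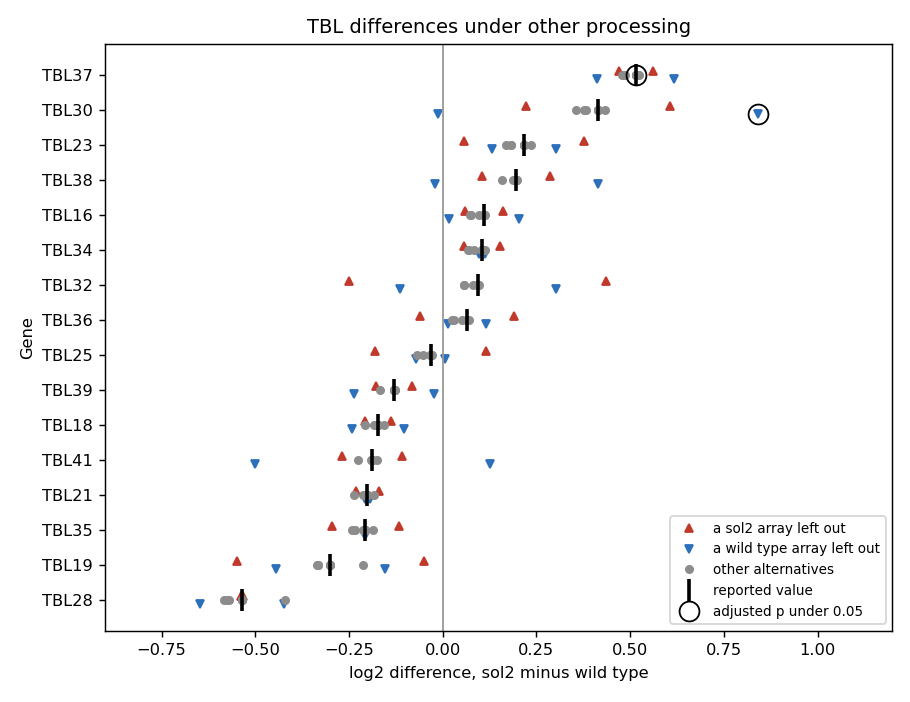
Log2 difference, sol2 minus wild type, of the 16 tested TBL genes as reported (black bars), with an array of sol2 (red) or wild type (blue) left out, and under the other alternatives (grey); a ring marks an adjusted p under 0.05. The rings are TBL37 with the replicate block (0.51) and TBL30 without wild type replicate 1 (0.84).

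Across the 14 alternative settings, 10 of the 16 genes kept the sign of their difference wherever they were tested. Settings that changed only the filter, the variance model, the replicate block or the threshold leave each difference as it was. Only the other normalizations, the other added constants and the fits with an array left out could thus change a sign. TBL37 stayed between 0.41 and 0.62 and TBL28 between -0.65 and -0.42. TBL19 kept its sign but ranged from -0.55 without sol2 replicate 1 to -0.051 without sol2 replicate 2, and TBL23 ranged from 0.056 to 0.38. TBL25, TBL30, TBL32, TBL36, TBL38 and TBL41 changed sign when a single array was left out, without being called there.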

How the data were processed

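The deposited table gave a linear intensity for each probe set and array, and GCOS is named for them in the submitters' processing notes. The version, algorithm and scaling target are not given in the sources used here. Mean signal over the middle 96% of probe sets was about 500 on each array, so no further normalization was applied. The array medians still differed, at 155.15 and 155.6 in sol2 and 142.7 and 160.75 in wild type. The table held 22810 probe sets, 64 of them controls that were left out. Genes were named from the platform annotation and the RefSeq table of TAIR10.1, which also gave gene order. Probe sets at or above the 40th percentile of mean log2(signal + 18.4) were tested, where 18.4 is the 20th percentile of all values, with limma 3.58.1 in R 4.3.3 (intensity trend, genotype as the only term, two-sided) and Benjamini-Hochberg adjustment over all 13648 tested probe sets. Fold changes on this scale understate those of dim genes. The fit was also run on simulated arrays with independent errors, without a change shared by replicates of the same number. The outcome of that run is not given here. Background was read from 27 probe sets of Bacillus transcripts. Tables were made with Python 3.11.15 and pandas 2.3.3, and figures with matplotlib 3.10.9. Every member was named. From other lists the text names called genes, or else the 1 or 2 that differed most. Aliases for 16 listed genes were added after a first match by symbol. The members and lists were chosen with earlier results of these data known. The number of arrays, 2 per genotype, limits the precision.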

Additional observations from a re-analysis of the deposited data

How the results depend on the processing

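All alternatives were planned. No TBL gene was called lower in sol2 at the adjusted p threshold under any of them. With the replicate block 1 was called higher (TBL37, limma), and TBL30 rose to 0.84 without wild type replicate 1. Over all probe sets, 129 were called higher and 41 lower as reported, 60 and 9 without a filter, 68 and 15 with the 60th-percentile filter, 660 and 462 with the replicate block, and 199 and 78 at an adjusted p under 0.10. With arrays left out in turn the counts ranged from 107 to 876 higher and from 46 to 549 lower, both highest without wild type replicate 2, and were 425 and 144 without wild type replicate 1. TBL genes called higher ranged from 0 to 1. The median log2 difference of the tested TBL genes, 0.016 as reported, was -0.014 with quantile normalization, -0.019 with equal array medians, -0.15 without a filter (22 genes), -0.032 with the 60th-percentile filter (11 genes) and -0.021 with TBR and TBL40 added, and ranged from -0.094 to 0.015 with arrays left out. Its sign therefore depends on the setting. Each member has 1 probe set, so averaging probe sets changed nothing. Across probe sets, the change from one replicate to the other correlated at 0.441 between sol2 and wild type, which does not show that the numbers pair the arrays, and the block changed no other call of a TBL gene. The cause of these changes was not tested.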
